A study of Mus musculus with 6 samples.

Results

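Regulators of G protein signalling, the RGS proteins, were examined in mouse liver as 10 genes: Rgs16, Rgs1, Rgs2, Rgs3, Rgs4, Rgs5, Rgs10, Rgs12, Rgs14 and Rgs19. Every probe set that the platform annotation ties to exactly 1 of these symbols was taken, which gave 26 of the 45037 probe sets on the array, or 10 of the 18193 genes named by such probe sets. A probe set is a group of short probes read together as 1 signal. The livers came from 10-week-old male BALB/c mice, an inbred albino strain, with 1 Affymetrix array per sample. Isolated mice (3 arrays) had lived 1 per cage for 30 days with less bedding, and control mice (3 arrays) had the fuller bedding. All had arrived at 4 weeks of age, lived 5 to a cage for 10 days to settle, and had food and water freely; the labels name no drug and no engineered allele. The cage size of the controls during the 30 days, the hour of sampling and any fast before it were not stated in the sources at hand. The labels number the samples without saying that each was a separate mouse, so the spread between arrays may be partly technical. A mouse given with a number below means the sample of that number.

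RGS proteins bind the active, GTP-loaded alpha subunit of a heterotrimeric G protein and speed up its hydrolysis of GTP, which shortens the signal of the receptor that switched it on. The R4 subfamily, here Rgs1, Rgs2, Rgs3, Rgs4, Rgs5 and Rgs16, holds mostly small proteins with little beyond the RGS domain. The R12 subfamily, here Rgs10, Rgs12 and Rgs14, and the RZ subfamily, here Rgs19, act mainly on alpha subunits of the inhibitory Gi class. In mouse liver, Rgs16 is known as a gene of hepatocytes whose mRNA varies with feeding state and time of day. The family was chosen from the isolated and control values of these same arrays, in which Rgs16 stood out. The differences below are therefore a description of the family and not an independent test of it.

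Promoter windows of Rgs16, the gene with the largest difference, of Rgs3, with the next largest at a called probe set, and of Rgs5, which differed little, are shown to set the 3 patterns beside their start sites. Each window runs from 250 bases before to 50 bases after a RefSeq start on GRCm38.p6, 5′ to 3′ on the gene's strand, and capitals mark the motif matches. RefSeq windows were found for 8 of the 10 genes.
Rgs16, chr1:153740103-153740402, plus strand: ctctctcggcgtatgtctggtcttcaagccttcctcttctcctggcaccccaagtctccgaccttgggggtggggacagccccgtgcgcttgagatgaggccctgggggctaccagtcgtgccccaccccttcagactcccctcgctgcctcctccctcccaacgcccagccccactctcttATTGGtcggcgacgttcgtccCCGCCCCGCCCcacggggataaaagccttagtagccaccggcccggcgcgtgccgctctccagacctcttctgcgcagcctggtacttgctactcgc
Rgs5, chr1:169655251-169655550, plus strand: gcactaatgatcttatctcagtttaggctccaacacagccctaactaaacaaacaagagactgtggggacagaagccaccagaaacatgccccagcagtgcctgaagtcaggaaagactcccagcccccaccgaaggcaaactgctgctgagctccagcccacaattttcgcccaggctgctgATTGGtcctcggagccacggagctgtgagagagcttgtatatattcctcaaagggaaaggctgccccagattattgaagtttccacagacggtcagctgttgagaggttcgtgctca
Rgs3, upstream start, chr4:62559597-62559896, plus strand: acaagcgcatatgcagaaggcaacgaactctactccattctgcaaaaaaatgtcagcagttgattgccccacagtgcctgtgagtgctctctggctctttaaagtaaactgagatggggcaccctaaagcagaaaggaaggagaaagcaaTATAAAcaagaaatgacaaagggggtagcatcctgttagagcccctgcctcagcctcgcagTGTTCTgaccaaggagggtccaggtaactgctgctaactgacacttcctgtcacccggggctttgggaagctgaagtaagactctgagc
Rgs3, downstream start, chr4:62619422-62619721, plus strand: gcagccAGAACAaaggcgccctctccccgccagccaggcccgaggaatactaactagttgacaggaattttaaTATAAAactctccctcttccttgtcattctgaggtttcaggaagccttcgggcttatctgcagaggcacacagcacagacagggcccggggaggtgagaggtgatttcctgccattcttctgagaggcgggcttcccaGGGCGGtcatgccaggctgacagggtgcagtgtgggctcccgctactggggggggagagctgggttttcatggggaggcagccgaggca
Both strands were searched for 7 motifs, none of which contains another. The E-box was searched as CACGTG. The TATA box was searched as TATAAA. The CCAAT box was searched under its own letters, and the GC box as GGGCGG. The core of the cAMP response element was searched as TGACG. The nuclear receptor site was searched as AGGTCA. The glucocorticoid receptor site was searched as TGTTCT. The Rgs16 window held a CCAAT match on the minus strand at position -68 from the start and 2 GC boxes on the minus strand at -47 and -42, which share 1 base. The Rgs5 window also held a minus-strand CCAAT match, at -67, and no GC box. Both Rgs3 windows held a TATAAA and a TGTTCT match, and only the downstream one of the pair held a GC box. TATAAA lay at -100 in the upstream and -177 in the downstream window, and TGTTCT at -39 and -244. Whether any of these matches is used was not tested. CCAAT was found in 37.4%, GGGCGG in 35.9%, TATAAA in 13.6% and TGTTCT in 18.9% of 32544 promoter windows of the same length. CACGTG, found in 7.17% of them, AGGTCA, in 16.2%, and TGACG, in 20.9%, were in none of the 4 windows printed.

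The values are MAS5 signals, the linear intensity that Affymetrix software computes per probe set. The median signal per array was 18.4 to 21.9 in isolated and 18.4 to 22.1 in control mice. None of the 6 tested hepatocyte markers, albumin among them, was called by the fit described below, and their summed signal was 46634 to 52876 in isolated and 50059 to 53065 in control mice. The ratio of 3′ to 5′ Actb control probe sets, a measure of RNA integrity, had a geometric mean of 2.16 in isolated and 2.21 in control mice (exact permutation test, two-sided, p = 0.8, where 0.1 is the smallest p that 3 against 3 allows). For Gapdh the ratio was 0.691 in isolated and 0.704 in control mice (same exact permutation test, p = 0.2). Of 4 adipocyte markers on the array, 1 was tested and 0 were called, and their summed signal was 211 to 504 in isolated and 127 to 215 in control mice. Fabp4, the one tested, read 203, 300.3 and 404 in isolated and 117, 202 and 157 in control mice, with no overlap (limma adjusted p 0.0578). Adipoq, below the filter, read 3.78, 59.5 and 54.8 in isolated and 4.38, 8.48 and 15.6 in control mice. Retn, also below the filter, read 2.65, 19.96 and 42.2 in isolated and 2.39, 2.78 and 3.88 in control mice. For both genes isolated mice 2 and 3 lay above every control mouse, and isolated mouse 1 did not. Lep was at most 3.30 on any array, too dim to compare. The part of adipose tissue in the results was not tested.

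Rgs16 was lower in isolated than in control livers at all 3 of its probe sets. Its protein is a small, palmitoylated member of the R4 subfamily that acts on Gi and Gq alpha subunits. At the brightest probe set, 1455265_a_at, the signal was 50.1, 34.3 and 287 in isolated mice 1, 2 and 3, against 365, 412 and 887 in control mice 1, 2 and 3. The groups did not overlap, but isolated mouse 3 lay nearer to the lowest control than to the other isolated mice. Probe set 1426037_a_at read 13.0, 5.86 and 129 in isolated and 196, 195 and 384 in control mice. Probe set 1451452_a_at read 11.6, 12.0 and 87.2 in isolated and 128, 110.3 and 219 in control mice. All 3 probe sets thus put every isolated array below every control array, with isolated replicate 3 on top of its group and control replicate 3 on top of all.

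As a share of the control mean, Rgs16 stood at 9.03%, 5.05% and 7.60% in isolated mouse 1 at the 3 probe sets in the order given. In isolated mouse 2 the shares were 6.18%, 2.27% and 7.86%. In isolated mouse 3 they were 51.7%, 49.8% and 57.2%, so that its reading was about the same whichever probe set was used. The log2 values of the 3 probe sets followed each other over the 6 arrays with Pearson's r of 0.99 in each pair, a description only, since the probe sets share arrays and groups. The signal averaged 124 ± 141 in isolated and 554 ± 289 in control mice (SD, n = 3 each) at 1455265_a_at, 49.1 ± 68.8 in isolated and 258 ± 109 in control mice at 1426037_a_at, and 36.9 ± 43.5 in isolated and 152 ± 58.5 in control mice at 1451452_a_at. The SD of the isolated group exceeded its mean at all 3. The difference of isolated minus control on the log2(signal + 2) scale was -2.65 ± 1.01 (SE, n = 3 per group) at 1455265_a_at, -3.31 ± 1.27 at 1426037_a_at and -2.52 ± 0.95 at 1451452_a_at. These are 6.28-fold, 9.91-fold and 5.75-fold lower signals. Without isolated replicate 3 they were 11.8-fold, 22.7-fold and 10.7-fold. Without isolated replicate 2 they were 4.18-fold, 5.57-fold and 4.24-fold. The dimmer pair read under 18, the signal that corresponds to the filter floor, in isolated mice 1 and 2, so their folds are approximate.

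**Figure D1:**
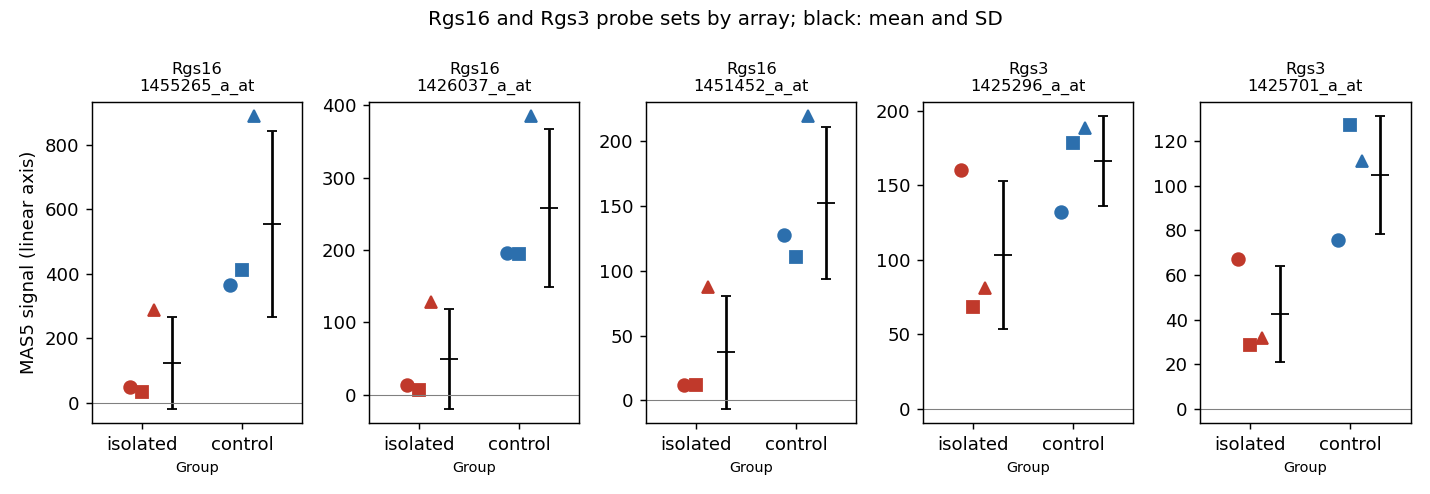
MAS5 signal on a linear axis (5 panels, each with its own scale) for the 3 Rgs16 probe sets and the brightest pair of Rgs3 probe sets, with isolated left of control. Circles, squares and triangles are replicates 1, 2 and 3, and black marks give the mean and SD. Rgs16 shows the same order of groups in all 3 panels, with isolated replicate 3 between the other isolated arrays and the controls, while for Rgs3 the highest isolated array is replicate 1.

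Rgs3, an R4 member with several protein isoforms that acts on Gi and Gq alpha subunits, was the other gene with a called probe set. At 1425701_a_at the signal was 67.2, 28.4 and 31.8 in isolated mice, against 75.8, 127 and 111 in control mice. The groups did not overlap, but isolated mouse 1 and control mouse 1 were close. The difference was -1.33 ± 0.43 (SE, log2 scale), or 2.52-fold lower. At 1425296_a_at the signal was 160.1, 68.5 and 81.1 in isolated and 132, 178 and 188 in control mice. Here isolated mouse 1 lay above control mouse 1, the groups overlapped, and the log2 difference was -0.76 ± 0.40. At 1449516_a_at the signal was 41.4, 25.6 and 27.9 in isolated and 22.5, 54.8 and 23.3 in control mice, a log2 difference of 0.01 ± 0.44. The fourth probe set, 1454026_a_at, was dim, at 2.51, 1.35 and 3.34 in isolated and 9.08, 7.26 and 2.83 in control mice. Probe sets of Rgs3 therefore disagreed, and which isoforms each of them reads is not stated in the sources used here. The low isolated arrays of Rgs3 were replicates 2 and 3, whereas those of Rgs16 were replicates 1 and 2. Without isolated replicate 1 the difference was -1.70 at 1425701_a_at and -1.12 at 1425296_a_at, and both were then called. The call at 1425701_a_at was lost when isolated replicate 2, isolated replicate 3, control replicate 2 or control replicate 3 was left out in turn.

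Rgs1, an R4 gene best known from lymphocytes and other immune cells, read 15.3, 18.5 and 14.7 at its single probe set in isolated mice, against 24.3, 33.4 and 41.9 in control mice. The groups did not overlap, at a log2 difference of -0.93 ± 0.23 (SE), but the probe set was not among those called. In a bulk liver sample, fewer cells of a type and less RNA per cell cannot be told apart. Markers of T and NK cells summed to 49.7 to 71.3 in isolated and 50.6 to 72.6 in control mice, and all 7 on the array, Cd3d and Cd3e among them, lay below the filter. B and plasma cell markers summed to 105.9 to 132 in isolated and 106.6 to 128 in control mice, with 0 of 2 tested genes called. Macrophage markers summed to 2193 to 3197 in isolated and 2767 to 3203 in control mice, with 0 of 7 called. Neutrophil markers summed to 57.0 to 107 in isolated and 70.2 to 159.8 in control mice, with 0 of 2 called. The part of these cells in the Rgs1 difference was not tested.

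Rgs5, an R4 gene used as a marker of pericytes, was steady. Its brightest probe set, 1417466_at, read 458, 507 and 469 in isolated and 477, 415 and 457 in control mice, a log2 difference of 0.09 ± 0.07 (SE). The other 3 probe sets had log2 differences of 0.23 ± 0.11, 0.07 ± 0.07 and -0.05 ± 0.17. At 1420942_s_at, the first of these, the groups did not overlap, with 124, 127 and 153 in isolated and 106.3, 114 and 124 in control mice. The closest pair there, isolated replicate 1 and control replicate 3, differed by less than 1 signal unit. Markers of pericytes and smooth muscle summed to 398 to 867 in isolated and 462 to 659 in control mice, with 0 of 6 called.

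Rgs2, an R4 member that favours Gq alpha subunits, had 4 probe sets that did not move together. At 1419248_at the signal was 17.7, 28.5 and 40.3 in isolated and 39.2, 32.2 and 33.9 in control mice, and the log2 difference was -0.33 ± 0.33. At the others it was -0.20 ± 0.16, 0.12 ± 0.38 and, for the dim 1443250_at, -0.33 ± 1.03. Rgs4, an R4 member studied mainly in brain and heart, lay below the filter at all 3 probe sets. Its brightest, 1416287_at, read 2.14, 5.71 and 18.8 in isolated and 11.1, 7.40 and 26.8 in control mice, with replicate 3 highest in both groups.

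Of the R12 genes, Rgs10 and Rgs14 had groups that overlapped, and Rgs12 was too dim to test. Rgs10, known for its level in immune cells, read 41.7, 34.4 and 48.9 in isolated and 48.2, 52.6 and 46.1 in control mice, a log2 difference of -0.23 ± 0.15 (SE). Rgs14, which besides its RGS domain has a GoLoco motif that binds inactive Gi alpha subunits, read 35.1, 28.1 and 46.9 in isolated and 48.2, 32.7 and 50.6 in control mice, a difference of -0.25 ± 0.28. Rgs12, a large multidomain member, lay below the filter at all 3 probe sets, whose differences were 0.38 ± 0.71, -0.69 ± 0.42 and 1.03 ± 0.77. Values this dim carry no order, as Rgs12 at 1457511_at shows with 0.587, 14.5 and 4.39 in isolated mice. The RZ gene Rgs19, which encodes a Gi-acting RGS protein, read 31.0, 19.7 and 27.7 in isolated and 16.4, 32.1 and 31.3 in control mice at 1417786_a_at, a difference of 0.01 ± 0.34. Its other probe set lay below the filter, at 0.42 ± 0.25.

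**Figure D2:**
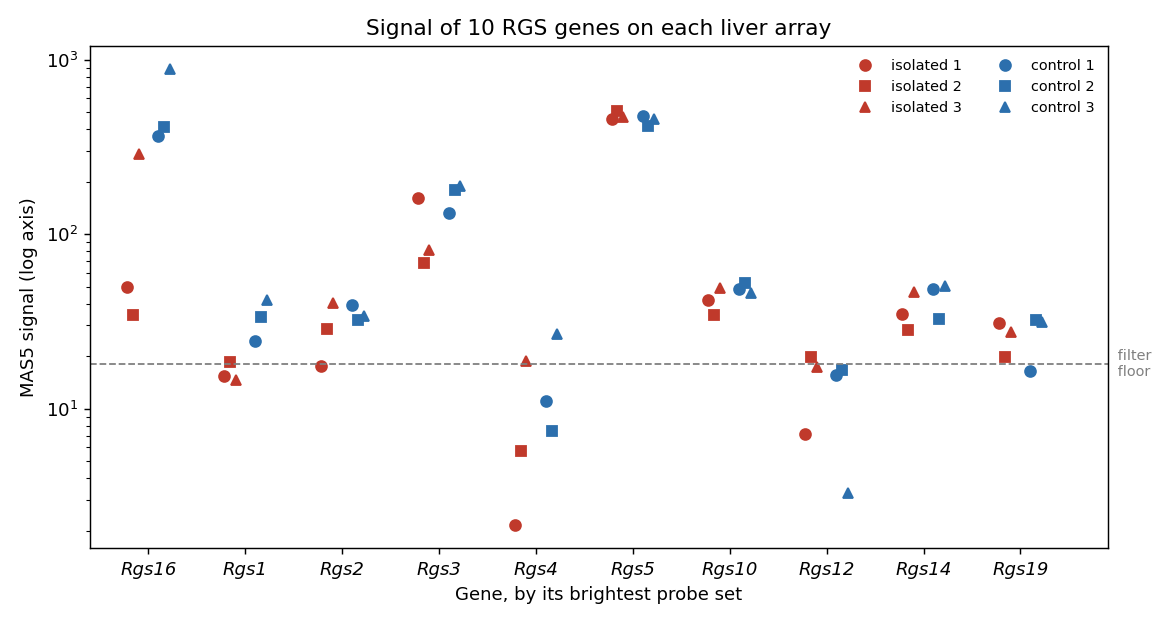
MAS5 signal on a log axis for the brightest probe set of each of the 10 genes on every array, R4 genes first, with isolated (red) left of control (blue) and a marker shape per replicate. The dashed line is the signal at the filter floor. Levels of different probe sets are not comparable with each other. Rgs16 shows the largest difference of group means among the 10 genes and a wide spread within both groups, and Rgs5 lies within 415 to 507 on all 6 arrays.

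Set beside its family, Rgs16 differed more than any other member at its brightest probe set. The other 9 genes, each by its brightest probe set, had log2 differences from -0.93 (Rgs1) to 0.38 (Rgs12) with a median of -0.25, and 6 were below 0 and 3 above. The Rgs16 value at 1455265_a_at lay 2.40 log2 units below that median. Among those 9 genes, Rgs4 and Rgs12 lay below the filter at all their probe sets, and Rgs1 was near the filter floor in isolated mice. Over all 23 probe sets of the other genes the median was -0.05, with 12 below 0 and 11 above, and the median over all probe sets of the array was 0.01. Of all 26 probe sets, 5 had groups that did not overlap with isolated lower, namely the 3 of Rgs16, 1 of Rgs3 and that of Rgs1, and 1 of Rgs5 had isolated higher. On the whole array, the groups did not overlap with isolated lower at 5.92% of probe sets and with isolated higher at 6.94%.

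Among the 26, 17 probe sets of 8 genes lay in the upper 50% by mean level and entered the limma fit across 22519 probe sets, while the 9 others included all those of Rgs4 and Rgs12. At an adjusted p under 0.05 the fit called 4 of the 17 lower, the 3 of Rgs16 and 1425701_a_at of Rgs3, and 0 higher. Over all tested probe sets it called 0.857% lower and 0.773% higher, or 193 and 174, a split that was 187 and 263 after median centring of each array. No reading of the members rests on these calls, since the same contrast was known when the genes were chosen. The calls of all 4 were lost without the dim-probe filter, without the intensity trend in the variance model and without control replicate 3.

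**Figure D3:**
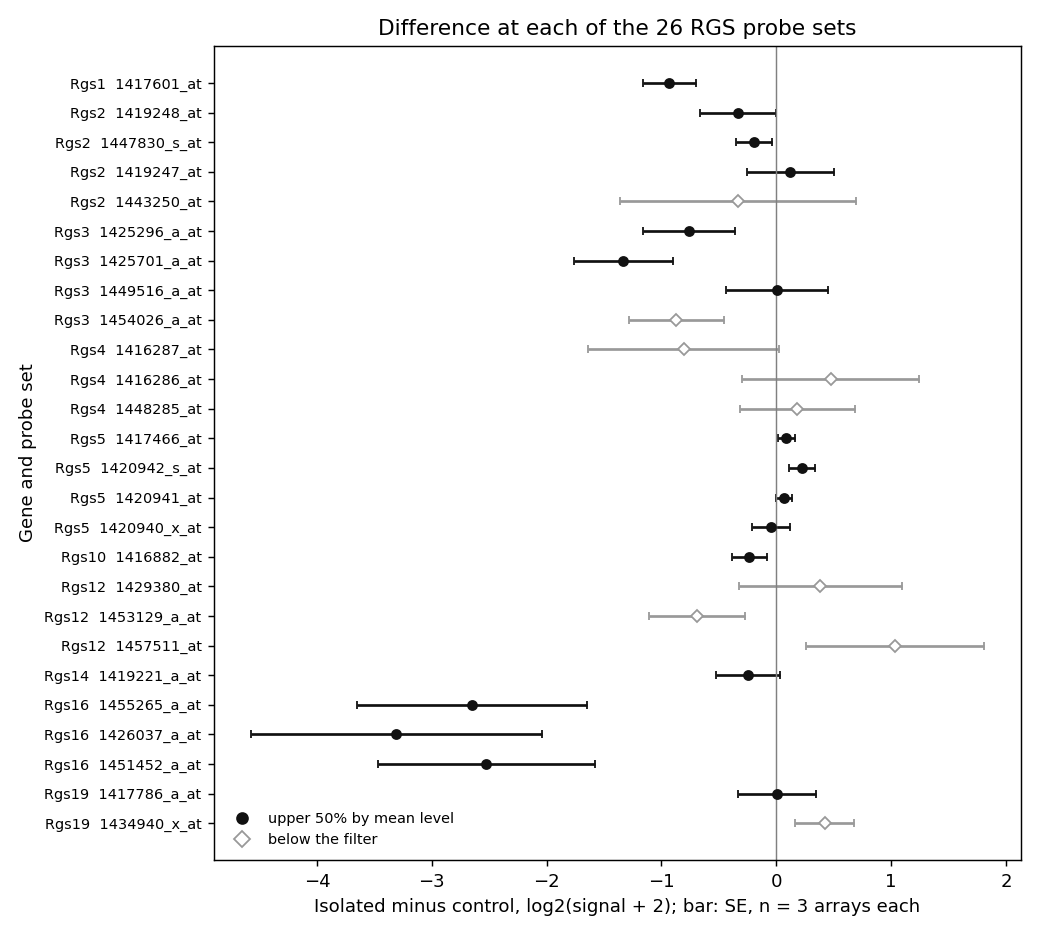
Isolated minus control on the log2(signal + 2) scale at each of the 26 probe sets, with the SE over 3 arrays per group. Filled circles are probe sets in the upper 50% by mean level, and open diamonds lie below the filter. The 3 Rgs16 probe sets lie between -2.52 and -3.31 with the widest bars among the filled circles, and the 4 Rgs5 probe sets lie near 0 with narrow bars.

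Genes whose log2 values followed those of Rgs16 at 1455265_a_at most closely over the 6 arrays were sought among 10985 other genes. The 8 highest had Pearson's r from 0.985 to 0.996 (Rnf217, Shroom2, D030056L22Rik, Erich6b, Ppara, Epc2, Klhl24 and Synj2, from high to low), all of them on arrays, groups and signal scales shared with Rgs16. As their selection on these arrays nearly fixes, in all 8 the groups did not overlap with isolated lower, replicate 3 was the highest isolated array and replicate 3 the highest control array. Their differences were smaller than that of Rgs16. Ppara, the fatty acid-sensing nuclear receptor, read 839, 749 and 1167 in isolated and 1411, 1396 and 1768 in control mice, a log2 difference of -0.75. Klhl24, an adaptor of a ubiquitin ligase, read 149, 112 and 242 in isolated and 329.6, 295 and 408 in control mice, a difference of -1.09. Only these 2 of the 8 were called lower by the limma fit. Among the other RGS genes no brightest probe set came closer to the pattern than that of Rgs10, at an r of 0.82, and the brightest of Rgs5 had an r of -0.52.

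**Figure D4:**
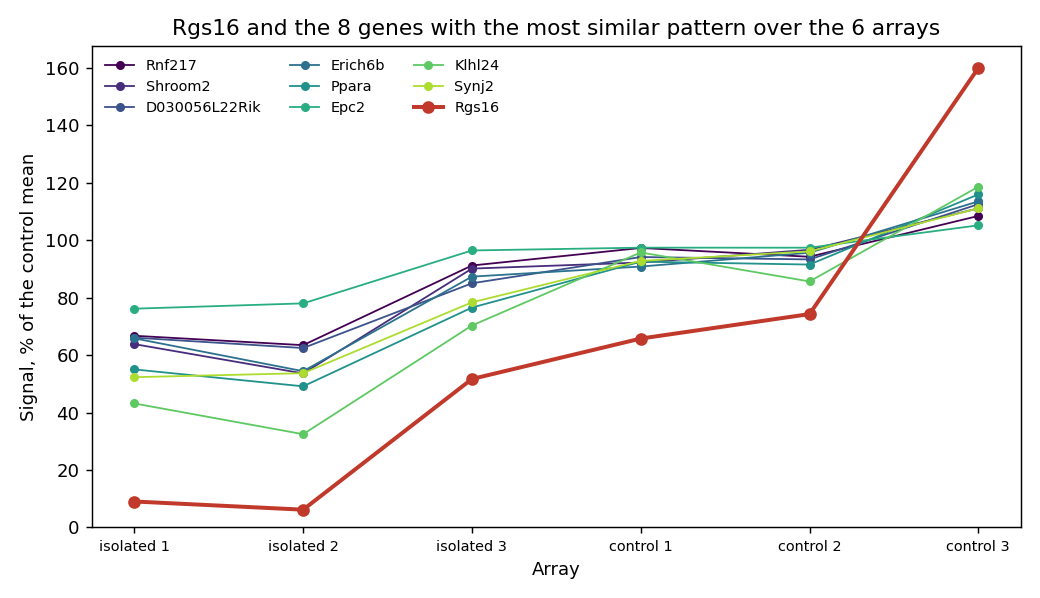
Signal of Rgs16 (red) and of the 8 genes with the most similar pattern, as percent of each gene's control mean, on the 3 isolated arrays and then the 3 control arrays. All 9 lines are lowest on isolated arrays 1 and 2 and highest on control array 3, and Rgs16 spans the widest range, from 6.18% to 160.0%.

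Of the 10 genes, 5 lie on mouse chromosome 1 in the RefSeq annotation (Rgs2, Rgs1, Rgs16, Rgs5 and Rgs4 in that order), where Rgs5 and Rgs4 are next to each other. The protein-coding neighbour of Rgs16 on one side is another R4 gene, Rgs8. Rgs8 was dim, at 1.61, 1.49 and 0.682 in isolated and 7.26, 3.39 and 11.4 in control mice, below the filter on all arrays and so not tested. Next beyond it lay Npl, a sialic acid lyase gene, and then Dhx9, an RNA helicase gene, with log2 differences of 0.15 and -0.10, and neither was called.

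Genes that work with RGS proteins were taken as 8 lists of pathway members, apart from a list for the transcription factor ChREBP described last. Of 92 such genes on the array outside the 10, 61 were bright enough to test, and limma called 0 higher and 0 lower, where it called 0.901% of all 10986 genes higher and 0.847% lower. At an unadjusted p under 0.05 there were 4 of the 61, or 6.56%, against 12.3% of all genes. With the ChREBP list counted in, 12 of 73 tested genes, or 16.4%, had such a p, and 2 were called higher and 2 lower, all of them in that list. The median log2 difference was 0.00 over the 61 genes and 0.05 over all genes, with 32 above 0 and 29 below, and a range from -0.55 to 0.98.

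By role, the closest relatives come first. Of 11 other RGS genes and anchors on the array only Rgs9 and Rgs7bp were tested, and Rgs9 had a log2 difference of -0.34 ± 0.23 (SE; adjusted p 0.667 in limma). Of 9 proteins with an RGS homology domain, Arhgef1, a guanine nucleotide exchange factor that G12/13 alpha subunits bind, read 108, 83.2 and 137 in isolated and 81.3, 60.7 and 73.8 in control mice (limma adjusted p 0.273). Among 11 tested alpha subunits the smallest p belonged to Gnat1, the rod transducin (0.95 ± 0.57, limma adjusted p 0.60). Gnat1 read 27.0, 21.5 and 35.6 in isolated and 2.24, 20.8 and 35.1 in control mice, with control replicate 1 far below the rest. Gnai2 and Gnai3, the main Gi subunits of liver, had differences of -0.14 and 0.18. Among 9 tested beta and gamma subunits the smallest p was that of Gng10 (0.23 ± 0.18, limma adjusted p 0.726). Receptor kinases and beta-arrestins, which switch receptors off, gave Grk3 (0.46 ± 0.30, limma adjusted p 0.645) as the smallest p of 5. Other direct modulators gave Gpsm1 (0.52 ± 0.34, limma adjusted p 0.636), also of 5.

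Of 9 tested effectors, the phospholipase C gene Plcb4 had the smallest p, with a difference of 0.39 ± 0.24 (adjusted p 0.605 in limma). Of 11 tested receptors, S1pr1, a sphingosine 1-phosphate receptor of endothelial cells, had the smallest p. It read 223, 192 and 205 in isolated and 101.3, 137 and 167 in control mice. The groups did not overlap, and the difference was 0.63 ± 0.20 (adjusted p 0.146 in limma), and a call was made after median centring and in the upper 25% of probe sets (limma adjusted p 0.0491 and 0.0471). Of 7 tested endothelial markers 0 were called. The other alternative that gave a call among the 61 was the fit without isolated replicate 1, for Axin2, a Wnt pathway scaffold, which read 5.43, 50.02 and 82.7 in isolated and 32.2, 17.4 and 4.49 in control mice.

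**Figure D5:**
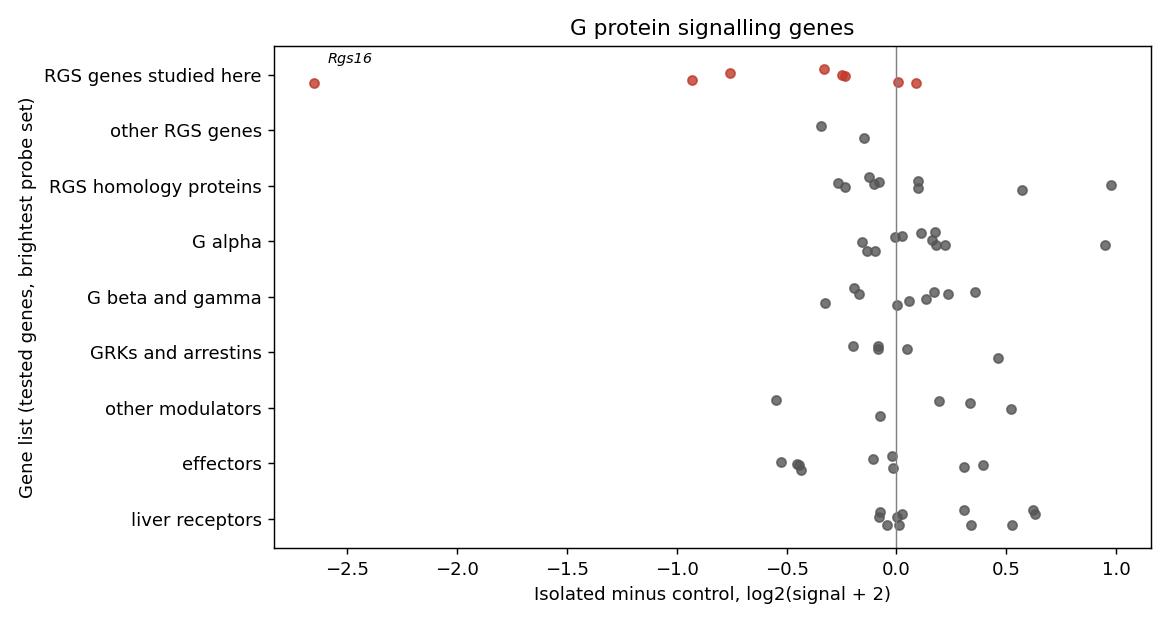
Isolated minus control on the log2(signal + 2) scale for tested genes, each by its brightest probe set, with the RGS genes studied here in red and 8 lists of G protein signalling genes in grey below them. Vertical scatter within a row only separates points. The grey points run from -0.55 to 0.98, and Rgs16 lies alone at -2.65.

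Rgs16 is known in mouse liver as a gene that the carbohydrate-sensing transcription factor ChREBP can activate. Of 12 genes for ChREBP, its partner and targets, all tested, 2 rose and 2 fell by limma: Fasn and Thrsp, of fatty acid synthesis, were called higher, and Txnip and Fgf21 lower. The median over the list was -0.01, beside 0.05 over all genes. Fgf21, a liver hormone gene, read 16.5, 10.3 and 26.04 in isolated and 75.3, 169.6 and 127 in control mice, a log2 difference of -2.69. Txnip, a thioredoxin-binding protein gene, read 231, 166 and 310.3 in isolated and 1626, 1482 and 1634 in control mice, a log2 difference of -2.78. Isolated replicate 3 was the highest of its group for Txnip, Fgf21 and Rgs16. It read 310.3 against a lowest control of 1482 for Txnip, 26.04 against 75.3 for Fgf21 and 287 against 365 for Rgs16. The same array was highest of its group for Mlxipl, Acaca, Thrsp, G6pc, Tkfc and Klf10, but not for Mlx, Pklr, Arrdc4 and Fasn. Its median signal, 21.9, was also the highest of the isolated arrays.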

How the data were processed

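Liver RNA of 3 isolated and 3 control samples was measured, 1 array each, and groups came from the sample titles. Per the labels' protocols, RNA was extracted with TRIzol and RNeasy columns and labelled with biotin. Per the submitters' processing notes, the authors made the deposited intensity values with MAS5; the sources at hand give neither the scaling target nor detection calls. A pseudocount of 2 was added before log2, which understates changes of dim probe sets. The 64 control probe sets were left out, and the upper 50% by mean log2 value, 22519 probe sets (floor 4.32), were tested with limma 3.58.1 in R 4.3.3. Variances followed an intensity trend, with Benjamini-Hochberg adjustment and a two-sided call at 0.05. The moderated variances had 16.1 prior and 4 residual degrees of freedom. The procedure was tested on simulated data. SEs of member differences are plain two-sample SEs, and those of other genes are from limma. Exact tests used scipy 1.17.1 and figures matplotlib 3.10.9.

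Symbols came from the platform annotation, checked against RefSeq GRCm38.p6. Outside the members, genes are represented by their brightest tested probe set; named were all member probe sets, called list genes or else the smallest p per list, and the 8 most similar genes. Klf10, G6pc, Axin2, Gnai2, Gnai3, Rgs7bp, Adipoq, Retn, Fabp4, Cspg4, Cnn1 and the chromosomal neighbours of Rgs16 were named after their values were seen. So were the other uncalled genes of the ChREBP list. Members and lists were chosen with earlier results of these data known. With 3 arrays per group, their number limits the precision. Alternatives covered the pseudocount, filter, normalization, variance model, array weights, replicate number, threshold, probe set choice and each array left out.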

Additional observations from a re-analysis of the deposited data

How the results depend on the processing

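The direction of the Rgs16 difference was below 0 in all 45 values from the alternatives over its 3 probe sets, and that of Rgs3 at 1425701_a_at in all 15. Of 330 values of the other member probe sets, 311 kept the sign of the reported value. The filter, the intensity trend, the robust trend and the replicate block leave a difference unchanged. Leaving out 1 array cannot reverse the sign where the groups do not overlap. Much of this agreement was therefore fixed in advance. The gap between Rgs16 and the median of the other genes stayed between -1.96 and -3.13. Calls depended on the settings. Member probe sets called lower numbered 0 without a filter and without the intensity trend, 3 with array weights (the call of Rgs3 being lost), 1 with quantile normalization (Rgs16) and 1 with a robust trend (Rgs3), 2 in the upper 25% of probe sets, and 0 to 5 with 1 array left out, against 4. The 0 were those without control replicate 3. Over all probe sets, 81 were called higher and 101 lower without a filter, 15 and 16 without the trend, and 263 higher after median centring and 303 at an adjusted p under 0.1. With 1 array left out, higher calls ranged from 97 to 200, the lowest without isolated replicate 3, and lower calls from 82 to 246, the lowest without control replicate 3. Median centring moved the median difference to 0.09, against 0.04. Of the G protein signalling genes, 1 was called higher in the upper 25%, 1 after median centring and 0 to 1 with 1 array left out. In the ChREBP list, higher calls numbered 1 without a filter, 0 without the trend and 1 to 2 with 1 array left out, and lower calls 4 with array weights and 2 to 4 with 1 array left out, the 4 without isolated replicate 3 adding G6pc and Klf10. Some of the settings hold fewer probe sets or arrays. The cause of these shifts was not tested.

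Across probe sets, the deviations of same-numbered samples from their group means had correlations of 0.01, 0.04 and 0.00. The titles give only a number. These correlations cannot decide whether same-numbered samples shared a batch or a pairing, since each group holds only 3 arrays. With the replicate block, 265 probe sets were called higher and 248 lower, against 174 and 193 without it. It called 3 member probe sets lower, those of Rgs16. No detection calls were at hand, so signals near the floor of 18 carry little order, and the 3 arrays per group limit every comparison.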
